A study of Mus musculus with 165 samples.

Results

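The macrophage arm of a differentiation time course was compared at its 2 ends: undifferentiated PUER cells in IL3, collected just before the addition of 4-hydroxy-tamoxifen (OHT), and PUER cells kept in IL3 for 168h after OHT addition (IL3-OHT 168h). The 6 libraries, 3 for each end, were chosen by their labels out of a series that holds 56 conditions and time points, most of them with 3 libraries. The starting cells are myeloid progenitors that depend on IL3. They come from mice without PU.1 (Spi1-/-) and make a fusion protein in which PU.1 is joined to the hormone-binding part of the estrogen receptor. Both groups share the null alleles and the fusion. Both groups were cultured in 5 ng/ml IL3, and the 168h cells received 200 nM OHT at 0h and fresh OHT with a change of part of the medium at 40h, 88h and 136h. The comparison asks which genes differ between the progenitors and the cells at the end of the IL3 treatment. There was no culture of 168h without OHT in the series used here, each time point was grown in a plate of its own, and cells after 24h were detached with trypsin, so that OHT, time in culture, plate and detachment cannot be told apart. The 3 replicates of a time point share that plate, and the adjusted p-values measure the spread between such replicates.

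PU.1, encoded by Spi1, is an ETS-family transcription factor that myeloid cells need to become macrophages and neutrophils. It binds purine-rich sites with a GGAA core, and it works together with C/EBP, AP-1 and IRF factors at the enhancers of genes for lysozyme, integrins, Fc receptors and other products of phagocytes. In PUER cells the fusion protein stays inactive until OHT binds the receptor domain, and IL3 supports macrophage differentiation once it is active.

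Values are normalized counts, reads per gene divided by the size factor of the library, and ± gives the SD of 3 libraries. The 6 libraries held 17754586 to 26093156 reads on genes, and 1 read was worth a normalized count of 0.915 to 1.31. Replicates correlated at r = 0.983 to 0.987 across genes, and their chi-square per gene was 3.11 to 10.0, where counting error alone gives 1, so that no pair was a repeat of a single library. Mitochondrial genes took 1.36% to 1.65% of the normalized counts, while the 10 highest genes took 7.54% to 7.72% in undifferentiated cells and 10.9% to 11.1% at 168h. Reads that aligned to Spi1 numbered 10268, 9905 and 9799 normalized counts in undifferentiated cells and 5404, 5685 and 5689 at 168h (log2 fold change -0.84, SE 0.048, limma adjusted p = 3.60e-32). Esr1, the estrogen receptor gene, had 5088 ± 53.6 in undifferentiated cells and 2046 ± 129.02 at 168h (log2 fold change -1.32, SE 0.0572, limma adjusted p = 2.22e-42). Both genes fell without overlap between the groups, and reads from the fusion and from the endogenous loci cannot be told apart in gene-level counts.

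Of 17414 genes tested with limma, 1782 were higher at 168h (10.2%) and 2641 were lower (15.2%) (adjusted p under 0.05, with log2 fold changes beyond 0.58 in size). Among called genes, the median absolute log2 fold change was 1.31 for the lower and 0.956 for the higher genes. An absolute log2 fold change of 1 was passed by 1754 of the lower and 847 of the higher genes. The lower calls held more low genes: under a filter at a mean of at least 10, 68.5% of them and 89.1% of the higher calls remained. At the far end the order turned around, since 53 higher genes and 39 lower genes passed an absolute log2 fold change of 4. The 3 libraries of one group lay wholly above those of the other for 1703 of the higher and 2460 of the lower genes, and for 9654 of all genes tested (55.4%). The median log2 fold change of all genes was -0.0328.

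**Figure D1:**
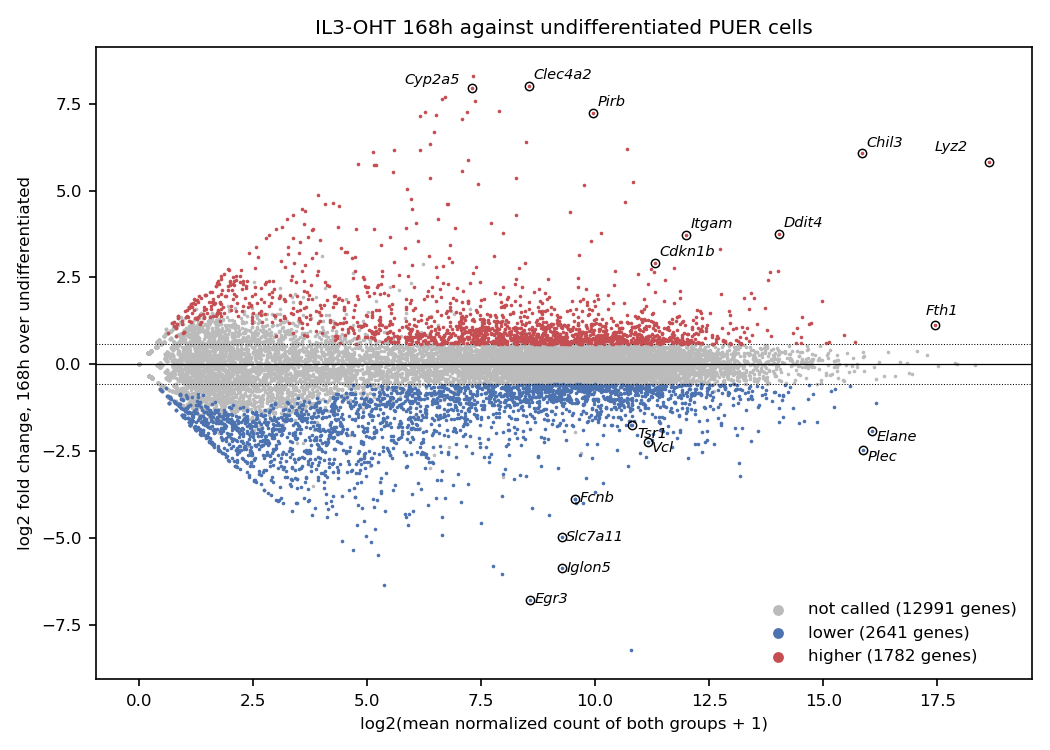
Log2 fold change of each gene tested at IL3-OHT 168h against undifferentiated cells (vertical axis) against the log2 of its mean normalized count over both groups plus 1 (horizontal axis), 1 point per gene, coloured by call, with dotted lines at the threshold of 0.58. Lyz2 and Chil3 stand at the upper right with log2 fold changes of 5.83 and 6.09, Elane and Plec at the lower right with -1.91 and -2.48, and the streaks at the left are genes with few reads.

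Genes were ranked by log2 fold change where the higher group reached a mean of 100 normalized counts and the groups did not overlap. Predicted gene models were left out. The 12 genes with the largest increases included 2 families of near-identical copies, the paired immunoglobulin-like receptors and the Bcl2a1 genes. The paired immunoglobulin-like receptor Pirb, an inhibitory receptor of myeloid and B cells, had 24.9, 8.18 and 8.27 normalized counts in undifferentiated cells and 1918, 2118 and 1872 at 168h (log2 fold change 7.24, SE 0.141, limma adjusted p = 7.29e-77). Its activating relative Pira2 had 0 reads in all 3 undifferentiated libraries and 133.01, 176.6 and 115.9 normalized counts at 168h, at least 40.4-fold higher when undifferentiated cells are set at the floor of 3 reads per library. Lilra6, of the same family, had 1.31, 0 and 1.18 in undifferentiated cells and 312, 353 and 310 at 168h, a ratio of 422 with a 95% counting interval of 116.6 to 3493. This ratio, like each ratio given with a counting interval, is that of the reads summed over the 3 libraries of each group, scaled by their summed depth, and so differs from the ratio of the means. Pirb was above the floor before OHT in every library, Pira2 and Lilra6 were under it, and all 3 had over 100 normalized counts at 168h. They lie in clusters on chromosome 7 where near-identical copies can exchange reads, so that the split among them is uncertain. Bcl2a1a, Bcl2a1b and Bcl2a1d, copies of the gene for the anti-apoptotic protein A1, are another such family. Bcl2a1a and Bcl2a1d had 0 reads in each undifferentiated library and 198.3 ± 30.9 and 208.6 ± 27.3 at 168h, at least 56.5-fold and 59.4-fold higher. Bcl2a1b had 3.93, 0 and 0 in undifferentiated cells and 154.4, 192.1 and 174.4 at 168h, a ratio of 151 with a 95% counting interval of 51.4 to 735. The 2 groups did not overlap for any of these 6 genes, as the rule that chose them required. The intervals and floors cover counting error only.

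The start of each of these 6 genes holds the letters GAGGAAGT, the PU.1-type core that was searched for in RefSeq windows (GRCm38.p6) from 250 bases before to 50 bases after each gene's start. Stretches of 60 bases around the match are shown, because they let the copies be compared, with the match in capitals and 5′ to 3′ on the strand of the gene. They lie at chr7:3720469-3720528 (minus strand), chr7:3845166-3845225 (minus), chr7:3915618-3915677 (minus), chr9:88956790-88956849 (plus), chr9:89199099-89199158 (plus) and chr9:88731921-88731980 (minus), in the order given, upstream of the RefSeq start.
Pirb: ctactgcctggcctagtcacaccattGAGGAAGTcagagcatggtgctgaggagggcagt
Pira2: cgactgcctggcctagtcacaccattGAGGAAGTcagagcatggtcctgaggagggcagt
Lilra6: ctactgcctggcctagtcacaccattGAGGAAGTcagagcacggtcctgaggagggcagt
Bcl2a1a: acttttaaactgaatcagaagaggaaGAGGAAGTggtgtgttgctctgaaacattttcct
Bcl2a1b: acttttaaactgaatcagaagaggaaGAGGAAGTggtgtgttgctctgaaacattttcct
Bcl2a1d: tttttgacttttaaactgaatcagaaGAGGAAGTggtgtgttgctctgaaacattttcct
Each pair among Pirb, Pira2 and Lilra6 is identical at 58 of 60 bases. The stretches of Bcl2a1a and Bcl2a1b are identical at 60 of 60, and each matches that of Bcl2a1d at 48 of 60 when compared without gaps. Bcl2a1a and Bcl2a1b hold an added gaggaa before the match, so that the same letters before it are shifted against those of Bcl2a1d. The matches within a family are thus not independent. The match starts 120 bases upstream of the start of Pirb, 148 of Pira2, 150 of Lilra6, 104 of Bcl2a1a, 148 of Bcl2a1b and 104 of Bcl2a1d. Over both strands, GAGGAAGT or its reverse complement ACTTCCTC was found in 4.52% of the windows of genes called higher, in 3.47% of those of genes called lower and in 3.14% of all 14706 windows, which belonged to 11654 of the 17414 genes tested, some with more than 1 start. The shorter core GAGGAA (reverse complement TTCCTC), which lies within GAGGAAGT, was in 28.8% of the windows of higher genes, 28.8% of those of lower genes and 26.9% of all windows. In the 5 lists searched, the longer core was in 16.7% of the windows of phagocytic and Fc receptor genes, a list that holds Pirb and Pira2, in 12.7% of those of ribosome biogenesis factors, whose called members were all lower, in 6.25% of macrophage markers, in 3.39% of mitosis genes and in 1.82% of DNA replication genes. Of the other genes with the largest increases, the window of Cyp2a5 holds its reverse complement, and those of Clec4a2, Clec12a, C1rl and Lyz1 hold neither. Tyrobp had no window to search. The window of Elane, which fell, holds GAGGAAGT 85 bases upstream of the start. The letters thus stand before genes of both directions. A match describes the letters in the window and was not set against binding data here.

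The other genes with the largest increases were 2 lectin receptors, a receptor adaptor, a complement-type protease, a cytochrome P450 and a lysozyme. Clec4a2, an inhibitory C-type lectin receptor, had 6.54, 2.05 and 0 normalized counts in undifferentiated cells and 601, 908 and 720 at 168h (log2 fold change 8.01, SE 0.27, limma adjusted p = 1.19e-52). Clec12a, another inhibitory lectin of myeloid cells, had 1.22 ± 1.18 and 266 ± 36, a ratio of 230 with a 95% counting interval of 78.3 to 1117. Tyrobp, the adaptor DAP12 through which many activating receptors signal, had 0, 2.05 and 1.18 in undifferentiated cells and 287, 312 and 266 at 168h, a ratio of 249 with an interval of 85 to 1210. These 3 genes were at a few reads in undifferentiated cells and at over 200 normalized counts in every 168h library. C1rl, related to the complement protease C1r, had 1 read in the undifferentiated libraries together and 180.6 ± 12.9 normalized counts at 168h, a ratio of 470 with an interval of 84 to 18596. Cyp2a5, a cytochrome P450 gene with close copies at its locus, went from 0, 1.02 and 0 to 311, 360 and 274, a ratio of 818 with an interval of 146 to 32347. Both intervals are wide because 1 read stands for the undifferentiated cells. The lysozyme gene Lyz1 had 5.23, 1.02 and 1.18 in undifferentiated cells and 375, 516 and 531 at 168h (log2 fold change 7.28, SE 0.267, limma adjusted p = 2.91e-49). Lyz1 lies beside Lyz2 on chromosome 10 and is close to it in sequence, so that a part of its reads may belong to Lyz2.

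The largest increase in number of counts was that of Lyz2, the gene for the lysozyme of macrophages and granulocytes. It had 14397, 14347 and 13775 normalized counts in undifferentiated cells and 793918, 830056 and 790769 at 168h (log2 fold change 5.83, SE 0.0601, limma adjusted p = 1.67e-106). Lyz2 alone took 0.0592% to 0.0620% of the reads before OHT and 3.31% to 3.48% at 168h. Chil3, the chitinase-like protein Ym1, went from 1704 ± 74.8 to 116722 ± 11269 (log2 fold change 6.09, SE 0.0813, limma adjusted p = 2.52e-94). Fth1, the heavy chain of the iron store ferritin, went from 112012 ± 2329 to 244929 ± 5238, and Lcn2, a siderophore-binding protein of granules, from 14186 ± 864 to 50578 ± 3426. Ddit4, an inhibitor of mTORC1 that rises under stress, had 2338, 2310 and 2308 in undifferentiated cells and 35590, 27745 and 30632 at 168h (log2 fold change 3.75, SE 0.163, limma adjusted p = 1.91e-42). For each of these 5 genes the lowest 168h library was above the highest undifferentiated library. The rule that chose them took the largest increases in mean among called genes and had no condition on overlap.

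The 5 genes that lost the most counts were Elane, Plec, Actg1, Ahnak and Thbs1. Elane, the neutrophil elastase made in promyelocytes, had 108842, 107315 and 108229 normalized counts in undifferentiated cells and 29986, 27950 and 28234 at 168h (log2 fold change -1.91, SE 0.0661, limma adjusted p = 1.23e-51). Plec, the cytolinker plectin, fell from 101253 ± 5438 to 18111 ± 576, a 5.59-fold lower level. Actg1, cytoplasmic gamma-actin, fell from 100579 ± 1103 to 46428 ± 1936, and the giant scaffold protein gene Ahnak from 54376 ± 1344 to 23325 ± 1400. Thbs1, the adhesive glycoprotein thrombospondin 1, fell from 45581 ± 779 to 14330 ± 807. Before OHT, Elane, Plec and Actg1 stood at similar levels, and at 168h they had moved apart, with Plec the lowest and Actg1 the highest of the 3.

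The largest decreases by ratio were led by Egr3, a zinc-finger transcription factor induced by growth factor signals. Egr3 had 816, 691 and 763 normalized counts in undifferentiated cells and 3.56, 6.40 and 8.48 at 168h, a 123.1-fold lower mean (log2 fold change -6.79, SE 0.574, limma adjusted p = 3.19e-20). Slc7a11, the cystine transporter that supplies glutathione synthesis, had 1132, 1230 and 1220 in undifferentiated cells and 40.4, 34.8 and 35.8 at 168h (log2 fold change -4.98, SE 0.214, limma adjusted p = 8.18e-43). Iglon5, a cell adhesion molecule best known from neurons, fell from 1222 ± 92.4 to 19.9 ± 2.47, a 61.5-fold lower level. Several of the genes in this group are better known from muscle, neurons, sperm or photoreceptors than from blood: the sodium channel gene Scn4a fell from 109 ± 18.3 to 5.36 ± 4.30, the drebrin gene Dbn1 from 345 ± 11.1 to 13.7 ± 3.09, Enkur from 113 ± 7.53 to 4.86 ± 4.70 and Fscn2 from 120.8 ± 11.7 to 6.45 ± 3.97. The dipeptidase gene Dpep3 fell 20.8-fold, Igsf9 fell 31.8-fold, Iqcn fell 23.7-fold, and Gfpt2, an isoform of the first enzyme of hexosamine synthesis, fell 22.1-fold. Tbxa2r, the thromboxane receptor, fell from 114.2 ± 14 to 5.33 ± 3.64. All 12 genes of this group were separated without overlap, which the rule that chose them required.

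**Figure D2:**
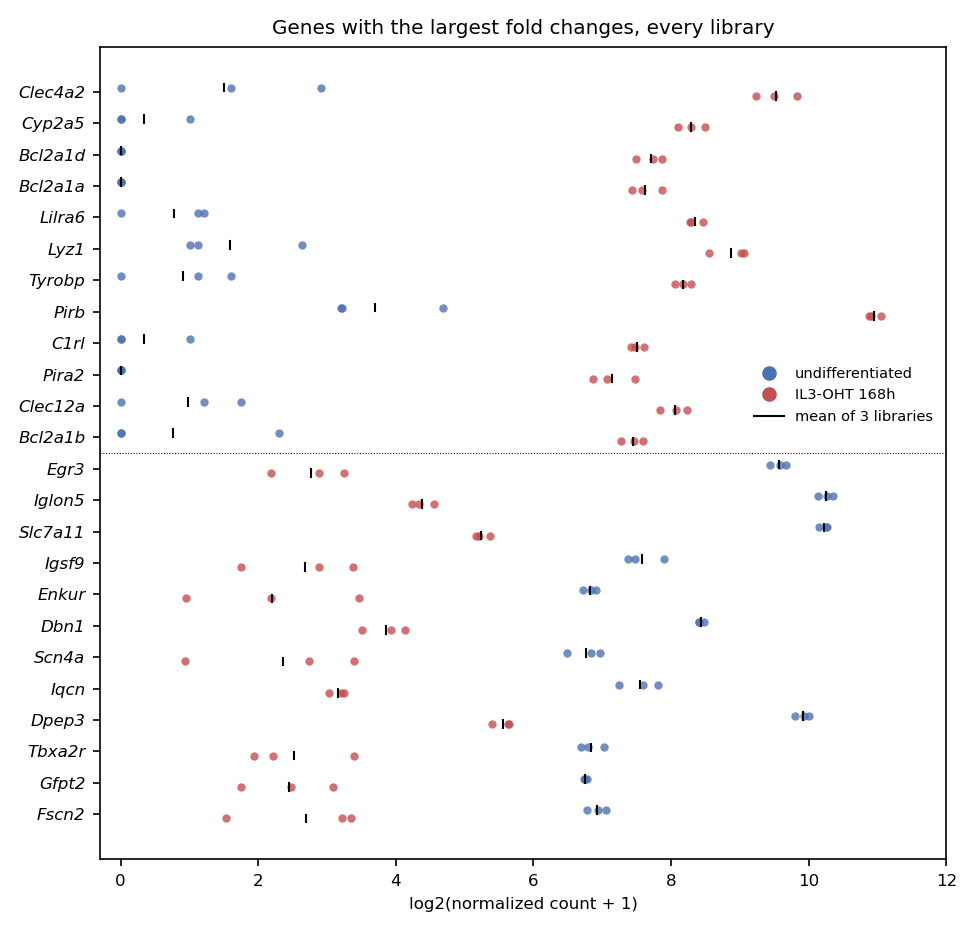
The log2(normalized count + 1) of the 12 genes with the largest and the 12 with the largest negative fold changes under the naming rule, 1 point per library (blue, undifferentiated; red, IL3-OHT 168h), with the mean of 3 libraries as a black tick. The red and blue points of a gene do not overlap in any row, as the rule required, and points spread most where a group has few reads.

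The gene lists described next were read against the 10.2% and 15.2% of all genes that were called higher and lower. Of 40 tested macrophage markers, 21 were higher (52.5%) and 5 lower, with a median log2 fold change of 0.78. Their summed level ran from 260290 to 273926 normalized counts in undifferentiated libraries and from 1156881 to 1229968 at 168h, where Lyz2 made up most of it. Itgam, the integrin CD11b of macrophages and granulocytes, had 590, 586 and 552 before OHT and 7439, 7997 and 7400 at 168h (log2 fold change 3.72, SE 0.0618, limma adjusted p = 3.78e-84). Not every defining marker appeared: Ctss, Ms4a7, C1qa, C1qb and C1qc were at 3 reads or fewer in all 6 libraries. Csf1r is the receptor for the macrophage growth factor M-CSF. It was named after its values were seen, because it marks the lineage, whereas the naming rule took Itgam from other lists. Csf1r had 10.5, 7.16 and 8.27 normalized counts in undifferentiated cells and 3.56, 4.57 and 6.60 at 168h and was not called (log2 fold change -0.72, SE 0.428, limma adjusted p = 0.157). At 168h, then, 21 markers had risen while Csf1r lay within a few reads of the floor and the complement C1q chains were not detectable at this depth.

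Among 35 phagocytic and Fc receptor genes, 15 were higher (42.9%) and 4 lower, with a median log2 fold change of 0.50, or 0.40 when the 3 genes with a group at 0 reads are set at their bound. Clec4n, the fungal pattern receptor dectin-2, had 3.93, 6.14 and 2.36 in undifferentiated cells and 283, 301 and 284 at 168h (log2 fold change 5.88, SE 0.194, limma adjusted p = 1.53e-53). With Pirb, Pira2 and Tyrobp, it is among the 4 members that moved furthest. Of 10 genes of the NADPH oxidase, which makes superoxide in the phagosome, 4 were higher and 1 was lower. Cybb, its catalytic subunit gp91phox, went from 1.31, 0 and 2.36 to 156.8, 197.6 and 132.0, a ratio of 140.5 with a 95% counting interval of 47.8 to 684. Ncf4, the cytosolic subunit p40phox, went from 16.7 ± 6.81 to 145.3 ± 17.5, and Cybc1, the chaperone of the catalytic subunit, from 1108 ± 26 to 1766 ± 38.1. Cyba, the membrane partner p22phox, was already at 4877 ± 33.3 before OHT and was 7371 ± 309 at 168h (log2 fold change 0.59), and it was not called without IL3-OHT 168h replicate 1 (0.57).

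The 28 tested neutrophil granule genes split, with 10 higher (35.7%) and 8 lower (28.6%) and a median log2 fold change of 0.32. Mmp9, the gelatinase of tertiary granules, had 13.1, 14.3 and 13.0 in undifferentiated cells and 566, 641 and 583 at 168h (log2 fold change 5.37, SE 0.195, limma adjusted p = 1.58e-49). Ltf, the lactoferrin of secondary granules, had 5.23, 7.16 and 11.8 before OHT and 194, 225 and 213 at 168h (log2 fold change 4.61, SE 0.301, limma adjusted p = 8.15e-28). Fcnb, the lectin ficolin B of granules, named after its values were seen, had 1424, 1442 and 1360 before OHT and 71.3, 97.9 and 121.6 at 168h (log2 fold change -3.88, SE 0.148, limma adjusted p = 1.38e-47). Elane, of primary granules, fell as given above. Of 55 lysosomal hydrolase and proton pump genes, 12 were higher (21.8%) and 1 lower. Ctsc, the dipeptidyl peptidase that activates granule proteases, went from 9.23 ± 1.39 to 103.4 ± 7.95. Atp6v0d2, a subunit of the vacuolar proton pump found in macrophages and osteoclasts, went from 100 ± 15.5 to 502 ± 47.9. Fuca1 and Ids, lysosomal hydrolases, were 2.06-fold and 2.02-fold higher. The median of this list, 0.11 on the log2 scale, stood beside -0.0328 for all genes.

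Of 30 integrin and adhesion genes, 6 were higher (20%) and 4 lower (13.3%), with a median log2 fold change of -0.01. Of 38 actin and podosome genes, 7 were higher (18.4%) and 5 lower (13.2%), so that in both lists the share lower was under that of all genes. Coro1a, an actin-binding protein of leukocytes, had 43.2, 37.8 and 53.2 in undifferentiated cells and 422, 373 and 380 at 168h (log2 fold change 3.11, SE 0.107, limma adjusted p = 1.17e-51). Myo1f, a motor protein of myeloid cells, went from 553 ± 22 to 3356 ± 75.2 (log2 fold change 2.60, SE 0.0487, limma adjusted p = 1.62e-78). Vcl, the focal adhesion protein vinculin, had 3766, 3763 and 3699 before OHT and 738, 863 and 788 at 168h (log2 fold change -2.23, SE 0.0665, limma adjusted p = 5.69e-58). Vim, the intermediate filament vimentin, fell from 25435 ± 168 to 8002 ± 276. The extracellular matrix gene Fn1 rose 3.40-fold, from 205.9 ± 35.3 to 700 ± 50.1, and Itgax, the integrin CD11c, rose 2.38-fold.

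**Figure D3:**
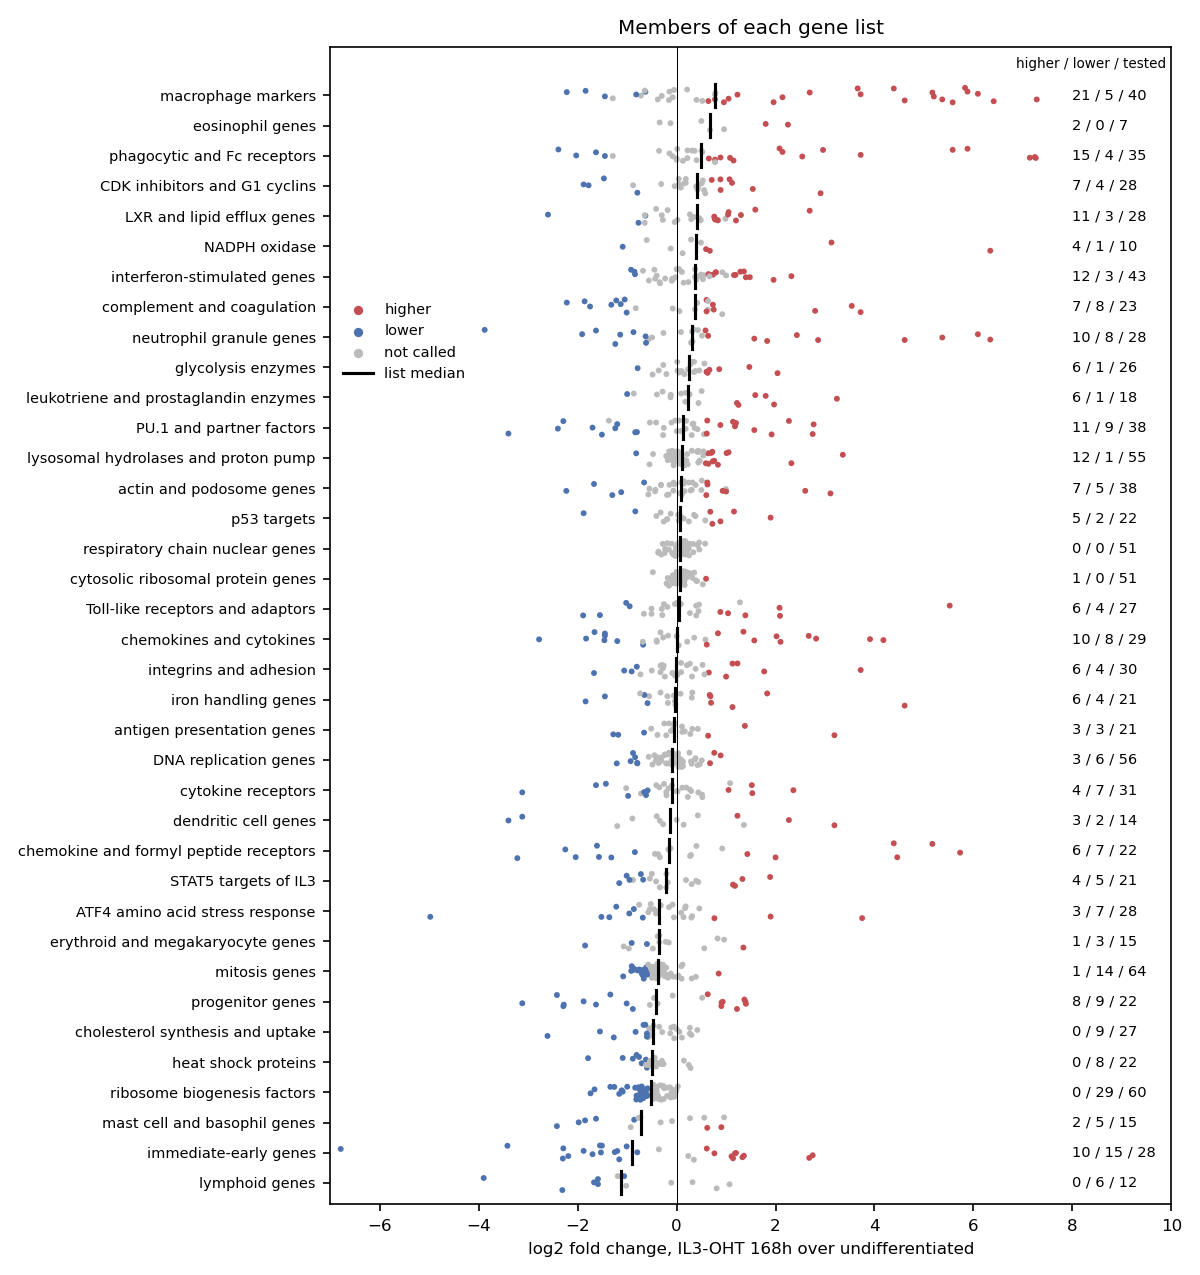
Log2 fold changes at IL3-OHT 168h over undifferentiated cells (horizontal axis) of the tested members of 37 gene lists (rows), 1 point per gene coloured by call, with the list median as a black bar and the numbers higher, lower and tested at the right. Macrophage markers have 21 of 40 higher, ribosome biogenesis factors 29 of 60 lower and immediate-early genes 15 of 28 lower, while all 51 nuclear genes of the respiratory chain are grey.

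Of 60 tested ribosome biogenesis factors, 29 were lower (48.3%) and 0 higher, with a median log2 fold change of -0.53. Tsr1, which acts in the maturation of the small ribosomal subunit, had 2701, 2791 and 2837 normalized counts in undifferentiated cells and 805, 858 and 835 at 168h (log2 fold change -1.74, SE 0.0694, limma adjusted p = 1.05e-45). Rrp12 fell from 1624 ± 62.3 to 514 ± 25.0, and Nop58 and Nop56, core proteins of the box C/D particles that methylate ribosomal RNA, fell 2.54-fold and 2.40-fold. Of the 51 cytosolic ribosomal protein genes themselves, 50 were not called, their median log2 fold change was 0.07, and the single higher member Rpl38 (log2 fold change 0.59) was not called without IL3-OHT 168h replicate 1 (0.48) or undifferentiated replicate 3 (0.55). Of 51 nuclear genes of the respiratory chain, 0 were called by limma, with a median log2 fold change of 0.08. Biogenesis factors thus had 29 called members, against 1 in these 2 sets together.

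Of 64 mitosis genes, 14 were lower (21.9%) and 1 higher, with a median log2 fold change of -0.38. Of 56 DNA replication genes, 6 were lower (10.7%) and 3 higher, with a median of -0.08, so that their share lower was under that of all genes (15.2%). Ckap2l, a spindle protein, had 950, 927 and 949 in undifferentiated cells and 417, 500 and 420 at 168h (log2 fold change -1.08, SE 0.076, limma adjusted p = 1.64e-25). Ccnb1, the mitotic cyclin B1, fell from 790 ± 69.5 to 420 ± 21, Foxm1, which activates mitotic genes, from 712 ± 59.8 to 389 ± 42.3, and the spindle gene Aspm 1.89-fold. Pcna, the sliding clamp of DNA polymerases, fell from 4041 ± 267 to 1745 ± 10.4, and E2f8, a repressor of the E2F family, from 543 ± 60.7 to 283 ± 5.75. Ccne2, the cyclin E2 that drives entry into S phase, went the other way, from 264 ± 35.6 to 487 ± 25.0. Every mitosis gene named here still had over 300 normalized counts in each 168h library. Among CDK inhibitors and G1 cyclins, 7 of 28 were higher and 4 lower. Cdkn1b, the CDK inhibitor p27, had 572, 618 and 585 before OHT and 4384, 4449 and 4560 at 168h (log2 fold change 2.91, SE 0.0835, limma adjusted p = 1.33e-59). The atypical cyclin gene Ccng2 rose 2.92-fold and Cdkn1a, the inhibitor p21, rose 1.85-fold, while Cdkn2b, the inhibitor p15, fell from 62.6 ± 8.39 to 17.7 ± 4.55.

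The windows around the start of the mitosis genes shared letters that the list did not use. TTTGAA or its reverse complement TTCAAA, the CHR element of cell cycle genes, was in 38 of 59 windows (64.4%) against 12.9% of the windows of all genes tested, and CCAAT or ATTGG, the NF-Y box, was in 71.2% against 37.9%. In windows of DNA replication genes, the NF-Y letters were in 61.8% and the CHR letters in 14.5%. Those of the E2F element TTTCCCGC (reverse complement GCGGGAAA) were in 12.7% of these windows, against 1.78% of all windows. Across all genes called lower, the CHR letters were in 13.2%, near the share in all windows. The stretch before the start of Ckap2l, at chr2:129297213-129297272 on the minus strand, is shown because it holds the reverse complement of the CHR letters, in capitals, beside ATTGG and CCAAT.
Ckap2l: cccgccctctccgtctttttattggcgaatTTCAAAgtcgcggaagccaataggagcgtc

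Immediate-early genes, which respond to growth factors soon after they are added, were the list with the fewest uncalled members: of 28, 15 were lower (53.6%), 10 were higher (35.7%) and 3 were not called. Within the family of AP-1 subunits the directions differed. Fos had 614, 572 and 622 normalized counts in undifferentiated cells and 2966, 5060 and 4455 at 168h (log2 fold change 2.75, SE 0.119, limma adjusted p = 1.20e-42). Fosb, its close relative, had 10492, 10284 and 10230 before OHT and 1360, 2681 and 2571 at 168h (log2 fold change -2.29, SE 0.182, limma adjusted p = 5.91e-22). In both genes 168h replicate 1 was the lowest of its group by a wide margin. The groups did not overlap in either gene, as in 55.4% of all genes tested, and the rule that named list members had no condition on overlap. Atf3, a stress-induced factor of the same class, fell from 2117 ± 16.8 to 199 ± 34.3. Zfp36, which marks cytokine mRNAs for decay, rose from 376 ± 21.6 to 2408 ± 99.7. Of 21 STAT5 targets of IL3, 4 were higher and 5 lower although IL3 was present in both groups. Pim1, a survival kinase, rose from 4861 ± 210.5 to 18132 ± 1978 and Pim3 rose 2.27-fold, whereas Socs3, a feedback inhibitor of cytokine signalling, fell from 17102 ± 364 to 7631 ± 145.2.

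Among 38 PU.1 and partner factor genes, 11 were higher and 9 lower, and among 22 progenitor genes, 8 were higher and 9 lower. Cebpd, of the C/EBP family, had 895, 771 and 919 in undifferentiated cells and 6585, 5307 and 5828 at 168h (log2 fold change 2.77, SE 0.0968, limma adjusted p = 3.09e-51). Ahr, the aryl hydrocarbon receptor, fell from 79 ± 9.51 to 14.2 ± 2.92. Of the progenitor genes, Kit, the receptor for stem cell factor, fell from 4053 ± 115.4 to 1315 ± 80.5, and Sox4, a transcription factor of early progenitors, from 7767 ± 655 to 1587 ± 116.7 (log2 fold changes -1.63 and -2.29). Flt3 and Gata2, named after their values were seen, fell from 32.7 ± 3.56 to 3.19 ± 1.81 and from 15.7 ± 2.52 to 2.26 ± 1.34, down to the floor. Other members of the list were higher at 168h: Gfi1, a repressor of stem cells and granulocyte progenitors, rose from 1034 ± 20.3 to 2718 ± 234, and Lmo2, a bridging factor of early blood cells, from 1101 ± 30.3 to 2842 ± 20.1. Of 31 cytokine receptor genes, 4 were higher and 7 lower. Csf2rb, the beta chain shared by the receptors for IL3, IL5 and GM-CSF, had 14766, 14704 and 13766 before OHT and 29553, 29717 and 30047 at 168h (log2 fold change 1.05, SE 0.0432, limma adjusted p = 1.79e-44). Csf2rb2, its IL3-specific copy, went from 2605 ± 50.9 to 7537 ± 223, and since the 2 genes are close in sequence, their shares of the reads are uncertain. Tgfbr1, a receptor of TGF-beta, fell from 2197 ± 179.5 to 1112 ± 65.4.

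Lists of lipid and glycolysis genes are given next, and differences between lists were not tested. Of 27 genes of cholesterol synthesis and uptake, 9 were lower (33.3%) and 0 higher, with a median log2 fold change of -0.47. Cyp51, lanosterol demethylase, had 1554, 1614 and 1716 normalized counts in undifferentiated cells and 616, 552 and 504 at 168h (log2 fold change -1.55, SE 0.0907, limma adjusted p = 2.05e-31). Idi1 fell 2.42-fold and Msmo1 1.59-fold. Between IL3-OHT 160h and 168h the median log2 difference of the 27 genes was -0.39, and Msmo1, itself not called in that step, had 995 ± 130.2 at 160h beside 1147 before OHT and 720 at 168h. Of 28 LXR and lipid efflux genes, 11 were higher (39.3%) and 3 lower, with a median log2 fold change of 0.41, or 0.32 with genes that have a group at 0 reads set at their bound. Lpl, the lipoprotein lipase that macrophages secrete, had 4058, 4472 and 4813 before OHT and 27688, 30302 and 28254 at 168h (log2 fold change 2.69, SE 0.0826, limma adjusted p = 9.81e-57). Scd2, a stearoyl-CoA desaturase, rose 3.01-fold and Nceh1, a cholesterol ester hydrolase, 2.46-fold, while the apolipoprotein gene Apoc2 fell from 63.8 ± 7.64 to 10.4 ± 5.28. Among 18 leukotriene and prostaglandin enzymes, 6 were higher and 1 lower. Alox5, which starts leukotriene synthesis, rose from 2281 ± 29.2 to 5328 ± 171.3, Pla2g15 rose 2.38-fold, and Ptgs2, the inducible cyclooxygenase, fell from 508 ± 35 to 257 ± 52. Of 26 glycolysis genes, 6 were higher and 1 lower. Hk2 and Hk3, hexokinases, rose 4.12-fold and 2.76-fold and Aldoc, an aldolase, 1.82-fold, while the lactate transporter Slc16a1 fell 1.73-fold.

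Of 43 interferon-stimulated genes, 12 were higher (27.9%) and 3 lower (6.98%), with a median log2 fold change of 0.38. Samhd1, a dNTP hydrolase that restricts viruses, had 768, 759 and 756 in undifferentiated cells and 3796, 3873 and 3720 at 168h (log2 fold change 2.32, SE 0.0908, limma adjusted p = 1.68e-46). The RNA sensors Ddx58 and Dhx58 rose 2.58-fold and 2.66-fold, and Xaf1 rose from 12.4 ± 0.642 to 51.9 ± 12.8. Of 27 Toll-like receptor and adaptor genes, 6 were higher (22.2%) and 4 lower (14.8%, under the share of all genes): Tlr8, an endosomal RNA sensor, went from 1.31, 0 and 2.36 to 77.2, 114.4 and 82.9 (a ratio of 80.1 with a 95% counting interval of 27.1 to 391), while Tlr4, the receptor for lipopolysaccharide, fell from 3075 ± 168 to 1517 ± 80.1 and Nlrp3, an inflammasome sensor, from 2307 ± 80.6 to 622 ± 64.5. Traf6, a ubiquitin ligase that relays Toll-like receptor signals, rose 2.05-fold. Of 29 chemokine and cytokine genes, 10 were higher (34.5%) and 8 lower (27.6%), and 13 listed genes were at 3 reads or fewer in all 6 libraries. Ccl6, a chemokine of myeloid cells, had 4080, 4023 and 3863 before OHT and 25757, 25560 and 24828 at 168h (log2 fold change 2.67, SE 0.0712, limma adjusted p = 8.73e-63). Its neighbour Ccl9 rose 4.29-fold, Il15, which sustains lymphocytes, rose from 9.11 ± 3.44 to 178 ± 29.7, and Il12a, a subunit of IL12, from 24.0 ± 1.91 to 176 ± 17.7.

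Of 22 chemokine and formyl peptide receptor genes, 6 were higher and 7 lower. Cx3cr1, the fractalkine receptor of monocytes, had 61.5, 60.3 and 63.8 normalized counts in undifferentiated cells and 1217, 1423 and 1330 at 168h (log2 fold change 4.39, SE 0.0714, limma adjusted p = 5.20e-85). Fpr1, the receptor for bacterial formyl peptides, had 1 read in the undifferentiated libraries together and 81.9, 81.4 and 50.0 normalized counts at 168h, a ratio of 182 with a 95% counting interval of 32.4 to 7233. Ackr3, a scavenger of CXCL12, fell from 56.2 ± 10.7 to 5.08 ± 0.75. Of 23 complement and coagulation genes, 7 were higher and 8 lower. Cfp, the complement activator properdin, rose from 153.3 ± 32 to 1775 ± 29 and F3, tissue factor, from 41.4 ± 4.16 to 293 ± 26.4, while Plaur, the urokinase receptor, fell from 17948 ± 684 to 3840 ± 91.9. Of 21 antigen presentation genes, 3 were higher and 3 lower, and the MHC class II genes H2-Aa, H2-Ab1 and H2-Eb1 were at 3 reads or fewer in all 6 libraries. H2-DMa, a chaperone of class II loading, fell from 77.6 ± 11.6 to 31.5 ± 6.22, and Psmb10, an immunoproteasome subunit, fell 2.28-fold, while H2-DMb1, the partner chain of H2-DMa, rose from 78.3 ± 20.3 to 120.4 ± 17.5 (log2 fold change 0.64), a call that was lost in a fit of only the 2 groups and without IL3-OHT 168h replicate 1 (0.53) or undifferentiated replicate 1 (0.43). Of 21 iron handling genes, 6 were higher and 4 lower, with Fth1, Lcn2 and Ltf among the former and the ferroxidase gene Cp, which fell from 2362 ± 65.3 to 867 ± 67.3, among the latter.

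Stress genes fell where they were called in the heat shock list and had calls in both directions in the others. Of 22 heat shock protein genes, 8 were lower (36.4%) and 0 higher, with a median log2 fold change of -0.49. Bag3, a co-chaperone, had 971, 846 and 857 in undifferentiated cells and 264, 246 and 262 at 168h (log2 fold change -1.79, SE 0.0993, limma adjusted p = 3.07e-33), and Hsp90aa1, the inducible HSP90, fell from 21678 ± 1481 to 11752 ± 1034. Of 28 genes of the ATF4 amino acid stress response, 7 were lower (25.0%) and 3 higher (10.7%, near the 10.2% of all genes). Slc7a11 and Slc7a5, amino acid transporters, fell, the latter from 4209 ± 132 to 1465 ± 112, whereas Ddit4 and Sesn2, both inhibitors of mTORC1, rose, the latter from 1559 ± 21.8 to 5840 ± 302. Of 22 p53 targets, 5 were higher (22.7%) and 2 lower (9.09%, under the 15.2% of all genes). Cdkn1a and the polymerase gene Polk were among the higher members. Btg2, an antiproliferative factor, was among the lower ones and fell from 106 ± 11.2 to 28.5 ± 6.64.

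Many markers of other blood cells were near the floor, and their part in the results was not tested. In bulk libraries such as these, fewer cells of a type and less RNA per cell cannot be told apart. Of the mast cell and basophil list, 11 genes, Cpa3, Mcpt4 and Fcer1a among them, were at 3 reads or fewer in all 6 libraries, and of 15 tested 5 were lower and 2 higher; its summed level was 22294 to 23047 in undifferentiated libraries and 11734 to 12347 at 168h, most of it Srgn. Mcpt8, a basophil protease, fell from 185.8 ± 14.6 to 51.1 ± 6.55. Of the erythroid and megakaryocyte list, 14 genes, Hba-a1 and Pf4 among them, were at 3 reads or fewer, and 3 of 15 tested were lower and 1 higher. Gp1bb, the higher member, had 62.8, 34.8 and 92.2 in undifferentiated cells and 188, 160 and 114.1 at 168h, with a limma adjusted p of 0.0433, and lost its call under several other settings. Lymphoid genes summed to 181.9 to 216.3 normalized counts before OHT and 80.8 to 84.8 at 168h, with 21 at 3 reads or fewer and 6 of 12 tested lower. Eosinophil genes summed to 9.16 to 10.2 and 15.4 to 28.4, with 2 of 7 tested higher, and of 14 tested dendritic cell genes 3 were higher and 2 lower.

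The time course between the 2 ends was read for when called genes passed the middle of their change for good. For each called gene, the midpoint between its undifferentiated and 168h means on the log2 scale was taken, and the time from which all later means stayed past it was recorded over the IL3-OHT time points without 96h and 144h, which the study excluded. Since 168h chose the genes, these times are a description. Of the 1782 higher genes, 373 (20.9%) had settled by 8h, 662 (37.1%) between 12h and 72h, 301 (16.9%) between 80h and 136h, and 446 (25.0%) at 152h to 168h. Of the 2641 lower genes, 860 (32.6%) had settled by 8h, 764 (28.9%) between 12h and 72h, 580 (22%) between 80h and 136h, and 437 (16.5%) at 152h to 168h. In this description the lower genes had the larger share in the first 8h and the higher genes in the last 3 time points. Pirb, Cx3cr1, Vcl and Egr3 settled by 8h, Lyz2, Tyrobp and Cdkn1b at 12h, Chil3 at 24h, and Elane, Cyp51 and Fos only at 152h. Elane and Cyp51 had first been past their midpoints at 12h and Fos at 32h, and each crossed back before it settled.

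Several genes did not move in 1 direction. Slc7a11 had a mean of 1194 before OHT, 3415 at 1h and 150 at 12h before its 37 at 168h. Fos had 602 before OHT, 5840 at 32h, 1274 at 136h and 4160 at 168h, and Tsr1 had 2776, then 3867 at 4h, 557 at 136h and 833 at 168h. Elane went from 63011 at 136h to 24231 at 152h, and Cyp51 from 1410 to 702 over the same step, which follows the last addition of OHT and medium and lies between separate plates, so that these cannot be told apart. Over the whole course, 161 higher genes (9.03%) had a mean beyond their 168h mean by over 1 on the log2 scale, as did 565 lower genes (21.4%). At 136h, 73 of the higher genes (4.10%) and 38 of the lower genes (1.44%) were on the other side of their undifferentiated mean.

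**Figure D4:**
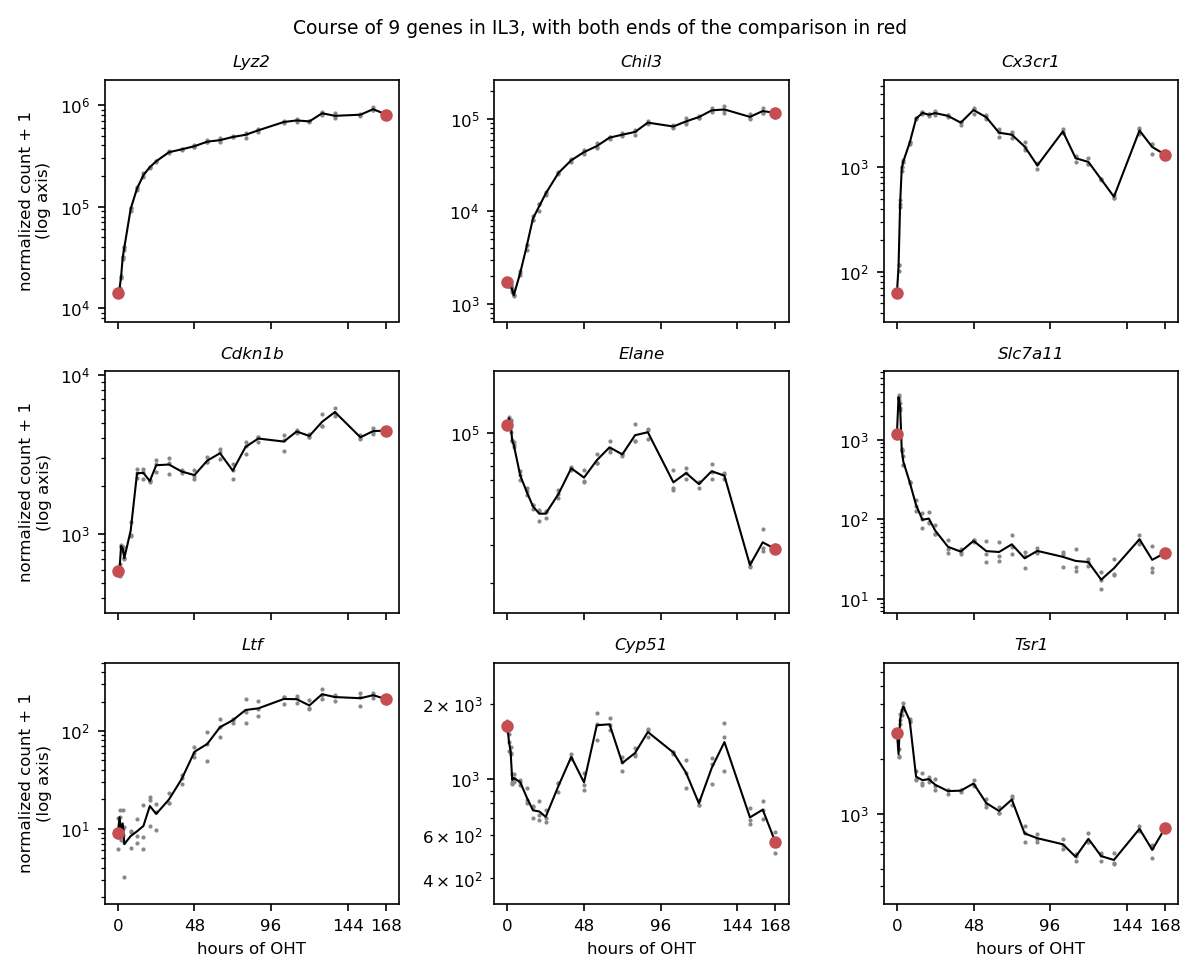
Normalized count + 1 (log axis) of 9 genes over hours of OHT in IL3, with each library as a grey point, the mean as a line and the means at 0h and 168h as red points. Lyz2 stays past its midpoint from 12h and Chil3, which is lowest at 4h, from 24h. Slc7a11 rises to 3415 at 1h before it falls to 150 at 12h. Elane is first past its midpoint at 12h, crosses back later, and steps from 63011 at 136h to 24231 at 152h.

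The 168h libraries were set against those of the time point before them to show how far the end state is shared with its neighbour. Between IL3-OHT 160h and 168h, 305 of 17414 genes (1.75%) were called, 160 of them higher at 168h and the rest lower, and the median log2 difference of all genes was 0.0008. Relative to undifferentiated cells, 1546 of the higher genes (86.8%) and 2420 of the lower genes (91.6%) were past a log2 difference of 0.58 in the same direction at 160h, as means that share the undifferentiated libraries. Of the 305 genes, 93 of the higher and 85 of the lower were not called between undifferentiated cells and 168h. Fos had 2223 ± 96.8 at 160h and 4160 ± 1078 at 168h, Egr1, another growth factor response gene, 4247 ± 257 and 7464 ± 928, and both were higher at 168h. Fosb, Egr2 and Egr3 were higher at 168h as well, making 5 of 28 immediate-early genes. Egr3, at 1.83 ± 2.29 and 6.15 ± 2.47, was far under its undifferentiated level at both times. Of 56 DNA replication genes, 8 were higher at 168h than at 160h, among them Mcm2, Mcm3, Mcm4 and Mcm5 of the helicase that opens DNA for replication, while 0 were lower.

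At 168h the same line had also been differentiated in GCSF instead of IL3, after 48h in GCSF and with 100 nM OHT (GCSF-OHT 168h, 3 libraries). Cytokine, pre-treatment and OHT dose differ together between these groups and cannot be told apart. Of 17414 genes, 4886 (28.1%) were called between them, 2096 higher and 2790 lower in GCSF, and the median log2 difference of all genes was -0.0217. The chemokine gene Ccl6 had 25382 ± 489 in IL3-OHT and 2511 ± 205.1 in GCSF-OHT (log2 difference GCSF minus IL3 -3.34, SE 0.0712, limma adjusted p = 1.37e-72), and Ccl9 6024 ± 71.3 and 451 ± 7.27. The Bcl2a1 copies separated the groups as well, with 208.6 ± 27.3 against 2.41 ± 2.19 for Bcl2a1d. In undifferentiated cells Ccl6 and Ccl9 had means of 3988 and 1405, above those in GCSF-OHT 168h, so that for these 3 genes IL3-OHT 168h was the highest of the 3 groups.

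Other genes that rose in IL3 were higher still in GCSF. Pirb had 1969 ± 130.8 in IL3-OHT 168h and 10160 ± 517 in GCSF-OHT 168h (log2 difference 2.37, SE 0.141, limma adjusted p = 5.09e-31), Cybb 162 ± 33.2 and 1531 ± 340, and Mmp9 597 ± 39.3 and 3120 ± 762. Some did not pass the test: Chil3 had 116722 ± 11269 and 119010 ± 3224 (log2 difference 0.03, SE 0.0813), and Tyrobp 288 ± 23.1 and 219 ± 46 (log2 difference -0.42, SE 0.298). The lists were read against all 17414 genes tested, of which 2096 were higher and 2790 lower in GCSF (28.1% called in either direction). By list, macrophage markers were lower in GCSF for 18 of 40 and higher for 7. Integrin and adhesion genes were lower for 16 of 30 and higher for 6. Neutrophil granule genes were higher in GCSF for 18 of 28 and lower for 3, and interferon-stimulated genes higher for 34 of 43 and lower for 2. Mitosis genes were higher for 56 of 64 and lower for 1, and DNA replication genes higher for 38 of 56 and lower for 0. Immediate-early genes were lower in GCSF for 18 of 28 and higher for 1. Cytosolic ribosomal protein genes, with a single call between undifferentiated cells and IL3-OHT 168h, were lower in GCSF-OHT 168h for 51 of 51, at a median log2 difference of -1.36. These libraries at 168h are those of the comparison with undifferentiated cells, so that the 2 sets of differences share them.

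**Figure D5:**
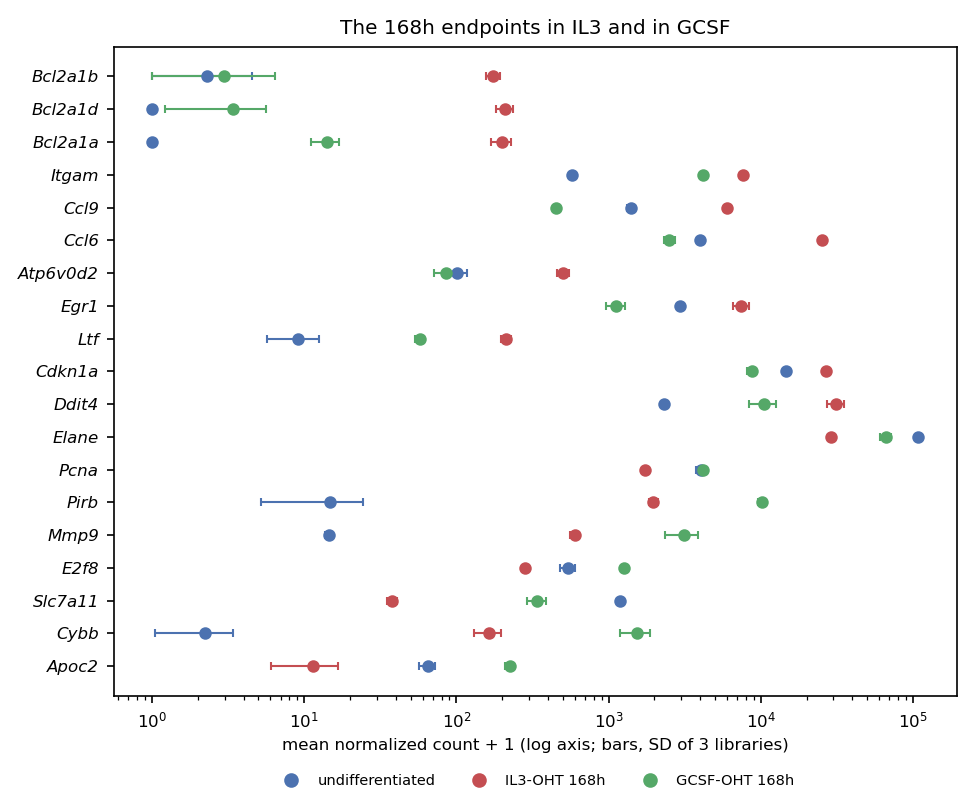
Mean normalized count + 1 (log axis) of 19 genes in undifferentiated (blue), IL3-OHT 168h (red) and GCSF-OHT 168h (green) libraries, with bars for the SD of 3 libraries. Ccl6 is at 25382 in IL3-OHT 168h and 2511 in GCSF-OHT 168h, whereas Pirb is at 1969 in IL3-OHT 168h and 10160 in GCSF-OHT 168h.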

How the data were processed

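RNA-Seq libraries of PUER cells were grouped by their labels. The authors mapped reads with Salmon (selective alignment, GRCm38; the submitters' processing notes also list mm10) and scaled each library with a size factor from DESeq2, so that the deposited values are a normalized signal, the normalized counts of 36255 genes. How transcripts were summed to genes and whether strand was used are not given in the sources used here, so overlapping or antisense genes may share reads. Divided by the smallest value of its library, every value came out whole within 0.001 (100% of values), so that whole reads could be recovered for the count tests.

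The 17414 genes that reached a normalized count of 5 in any library entered the test, on log2(normalized count + 1), a scale that understates the change of low genes, with limma 3.58.1 in R 4.3.3 (eBayes with trend, 1 mean per condition and time point, 159 libraries in 54 groups, residual df 105, prior df 8.12). As in the study, the libraries of IL3-OHT 96h and 144h did not enter. Benjamini-Hochberg adjustment ran over all genes tested, and a gene was called where its adjusted p was below 0.05 and its log2 fold change exceeded 0.58 in size. Fold changes against a group at 0 reads were set against a floor of 3 reads per library, and with 1 to 3 reads in a group the ratio has an exact 95% counting interval.

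Named genes were the 12 largest and 12 smallest log2 fold changes (mean of at least 100 in the higher group, no overlap, predicted gene models left out). Called genes with the 5 largest increases and decreases in mean were added, without a condition on overlap. Up to 4 called members of each of 37 lists (1108 genes, 1104 in the table, 999 tested) with a mean of at least 50 were added, again without such a condition. A few of these genes are not reported here. The genes compared and the lists were chosen with earlier results of these data known. Alternatives were pseudocounts of 0.5 and 5, no filter, a mean of at least 10, upper-quartile scaling, a fit restricted to both groups, the replicate block, each replicate left out, edgeR 4.0.16 (quasi-likelihood, TMM) and DESeq2 1.42.0 on recovered reads. The tests were tried on simulated data. Coordinates are those of GENCODE M21 and windows those of RefSeq (GRCm38.p6). Tables and plots were made with Python 3.11.15, numpy 2.4.6, pandas 2.3.3, scipy 1.17.1 and matplotlib 3.10.9.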

Additional observations from a re-analysis of the deposited data

Results flagged for a closer look

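Of the 34 genes with the largest changes in ratio or in number of counts, 23 (67.6%) differed at 168h between GCSF and IL3 by limma's test of the difference, against 28.1% of all genes tested, which is what brought them here. The genes were chosen through the same IL3-OHT 168h libraries that enter this test, so nothing is read from their share. Since both conditions start from the same undifferentiated libraries, the difference at 168h is the difference of their changes. Cytokine, pre-treatment and OHT dose differ together, and their parts were not tested. Values are log2 differences, GCSF-OHT 168h minus IL3-OHT 168h.

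Among genes that rose in IL3, Pirb (2.37), Clec12a (1.58), Clec4a2 (1.47), Lcn2 (1.31), Cyp2a5 (1.30), Pira2 (1.19), Lyz1 (1.15) and Lyz2 (0.62) were higher in GCSF. Lilra6 (-1.39) and Ddit4 (-1.60) were lower in GCSF, as were the 3 Bcl2a1 copies: Bcl2a1b (-6.51), Bcl2a1d (-6.24) and Bcl2a1a (-3.84). Pirb and Pira2 thus went with one condition and Lilra6 with the other within a family whose reads can be exchanged.

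Among genes that fell in IL3, Slc7a11 (3.15), Elane (1.20) and Plec (0.58) were higher in GCSF. Dpep3 (-1.79), Enkur (-1.73), Scn4a (-1.69), Igsf9 (-1.54), Iqcn (-1.36), Iglon5 (-1.34) and Thbs1 (-0.74) were lower still in GCSF. Enkur, Scn4a, Igsf9 and Iqcn had means under 10 normalized counts in both conditions at 168h, close to the floor.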

How the results depend on the processing

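Of the genes called between undifferentiated cells and IL3-OHT 168h, none reversed its sign under any alternative tried. Between undifferentiated cells and IL3-OHT 168h, the alternatives gave 1601 to 1909 higher and 1831 to 2837 lower genes, and leaving out 1 replicate gave 1725 to 1768 and 2414 to 2572. The lowest counts came from a mean of at least 10, where 1587 of the higher genes and 1808 of the lower genes (68.5%) were still called; this filter removes low genes. edgeR shared 1687 higher and 2307 lower calls, and DESeq2 1664 and 2250. Between IL3-OHT 160h and 168h the calls were less stable: in place of 305 genes (1.75% of those tested), 487 (1.74%) were called without a filter, where more genes enter the test, and 1.13% in a fit of only the 2 groups, where 85 in place of 160 were higher. DESeq2 called 238, of which 44.1% were higher against 52.5% in the report, and leaving out 1 replicate gave 222 to 332; the cause was not tested. Of chemokines and cytokines, 8 were lower, but 4 with a mean of at least 10, 5 in a fit of only the 2 groups and 5 to 8 with 1 replicate left out, the lowest without undifferentiated replicate 1. With a mean of at least 10, chemokine and formyl peptide receptors had 4 lower in place of 7, and leukotriene and prostaglandin enzymes 3 higher in place of 6. Of the log2 fold changes of named genes under the alternatives, 2112 kept their direction and call and 17 kept their direction only, among them those of Gp1bb (0.98 without undifferentiated replicate 2), Cyba and Rpl38. Depth limits genes near the floor, 2.74 to 3.93 normalized counts for 3 reads.

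The replicate numbers did not pair the libraries: deviations from the group means of same-numbered libraries correlated at 0.0307, 0.00935 and 0.00402. With the replicate block, 1781 genes were higher and 2643 lower.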

Other observations

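The point at the foot of the plot of fold changes is Gm10359, a predicted gene that the naming rule left out. It had 5519, 4993 and 0 normalized counts in the undifferentiated libraries and 0 in all 3 libraries at 168h, so that the third undifferentiated library lay with the 168h libraries and the groups overlapped. It was still called lower by limma (log2 fold change -8.24, SE 3.44, adjusted p = 0.0371), and its size rests on 2 libraries. Gm14548, another predicted gene, had 0 reads in each undifferentiated library and 306, 340 and 303 normalized counts at 168h, at least 90.1-fold higher against the floor of 3 reads per library.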
